A study of Mus musculus with 23 samples.

Results

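Nnt and Wdfy1 are protein-coding genes known to differ between C57BL/6 substrains, and they are 2 of the 53090 genes in the deposited tables of each of 23 microglia libraries. They were picked by symbol because their values in these libraries split by the number in the library title, so the group and title-number values below describe that choice and carry no test. Microglia, the resident macrophages of the brain, came from female mice labelled C57BL/6, with no substrain given, and their poly(A) RNA was sequenced. The groups were young mice (Y, n = 7), young mice whose microglia had been depleted and had returned (Y-re, n = 3), old mice (O, n = 5) and old mice with returned microglia (O-re, n = 8). Depletion used PLX5622, an inhibitor of the receptor CSF1R on which microglia depend, mixed into chow at 1200 ppm. The protocol gives control mice the same chow without drug. The sources used here give neither ages, nor the time on drug, nor the time of return. The labels do not say whether a library is 1 animal or a pool, so p-values measure the spread between these libraries.

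The titles number the libraries from 1 to 24. Numbers 1 to 11 hold 3 Y, 2 O and 5 O-re libraries, and numbers 12 to 21 hold 4 Y, 3 O and 3 O-re libraries. The 3 Y-re libraries carry numbers 22 to 24, so the Y-re group and that run of numbers cannot be told apart. Nothing in the labels says what the number stands for. RNA input is given only as a range of 2.4 to 147 ng, the same for every library. Its part in the values by title number was therefore not tested. Total counts ranged from 43.66 to 58.19 M (M for 1e06 counts), and genes with a count ranged from 16437 to 19983 in numbers 1 to 11, from 20484 to 22317 in numbers 12 to 21 and from 17637 to 20595 in numbers 22 to 24. The 8 microglia markers summed to between 8679 and 28927 counts per M (CPM), and all 8 had counts. Summed markers of other cells, 4 genes each, reached 1236 CPM for monocytes, 446.5 for border macrophages, 216 for neutrophils, 187 for endothelial cells and 77.9 for oligodendrocytes in the highest library, and at most 18.2 for astrocytes, 4.23 for neurons and 3.69 for T cells.

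NNT, nicotinamide nucleotide transhydrogenase, sits in the inner mitochondrial membrane and uses the proton gradient to make NADPH from NADH, which feeds the glutathione and thioredoxin systems that remove peroxides. C57BL/6J mice carry a deletion of internal Nnt exons and make no working protein, whereas C57BL/6N mice carry the intact gene. WDFY1 is an endosomal protein with a FYVE zinc finger, which binds a membrane lipid, and WD40 repeats. It is known as an adaptor that brings TRIF to the Toll-like receptors TLR3 and TLR4, receptors through which microglia sense double-stranded RNA and lipopolysaccharide. Both genes are used to tell C57BL/6 substrains apart.

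Nnt (ENSMUSG00000025453) lies on the minus strand at chr13:119335448-119408997 of GRCm38, in GENCODE M21, whose version of the gene differs from the deposited one. The mouse reference genome is of C57BL/6J, so exons lost from that substrain are not in this annotation. The deposited tables list 5 Nnt transcripts of 1885 to 3464 bases. The longest, Nnt-202, has 17 exons with 2505 coding bases, and Nnt-201 has 15 exons. The junctions of exons 7 and 8 are shown because the exons missing from C57BL/6J lie after exon 7. The last 30 bases of exon 7 are in lower case and the first 30 of the next exon are in capitals.
Nnt-202, exon 7 to exon 8: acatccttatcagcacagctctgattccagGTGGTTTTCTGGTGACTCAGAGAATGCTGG
Nnt-201, exon 7 to exon 8: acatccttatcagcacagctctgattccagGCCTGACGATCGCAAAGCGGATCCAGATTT
Exon 7, at chr13:119381676-119381863, is common to both. Exon 8 of Nnt-202 is at chr13:119374629-119374774, and Nnt-201 goes instead to chr13:119369912-119370145. Reads over any one junction were not counted separately in the deposited tables, so the values below are for the gene as a whole.

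Wdfy1 (ENSMUSG00000073643.11) lies on the minus strand at chr1:79702262-79776143, with 14 listed transcripts. In 4 of them, Wdfy1-204 to Wdfy1-207, the length is 4551 bases, and the other 10 have 460 to 1359 bases. The annotated gene holds exons 4, 5 and 6 as a repeat. Each of these exons occurs in a pair of copies 7442 bases apart, with 55, 151 and 113 bases and 0 differences between copies. Exon 4 is shown to make the repeat visible, all in lower case because no base differs.
Exon 4, first copy, Wdfy1-204, chr1:79729656-79729710: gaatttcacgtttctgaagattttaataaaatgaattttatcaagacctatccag
Exon 4, second copy, Wdfy1-205, chr1:79722214-79722268: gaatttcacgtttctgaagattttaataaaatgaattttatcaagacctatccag
The 4 transcripts of 4551 bases differ in which copy of each exon they use, and their sequences are identical with 0 differences from Wdfy1-204. Reads therefore cannot be assigned to a copy. The Wdfy1 expected count was a whole number in all 23 libraries, and that of Nnt in 1.

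**Figure D1:**
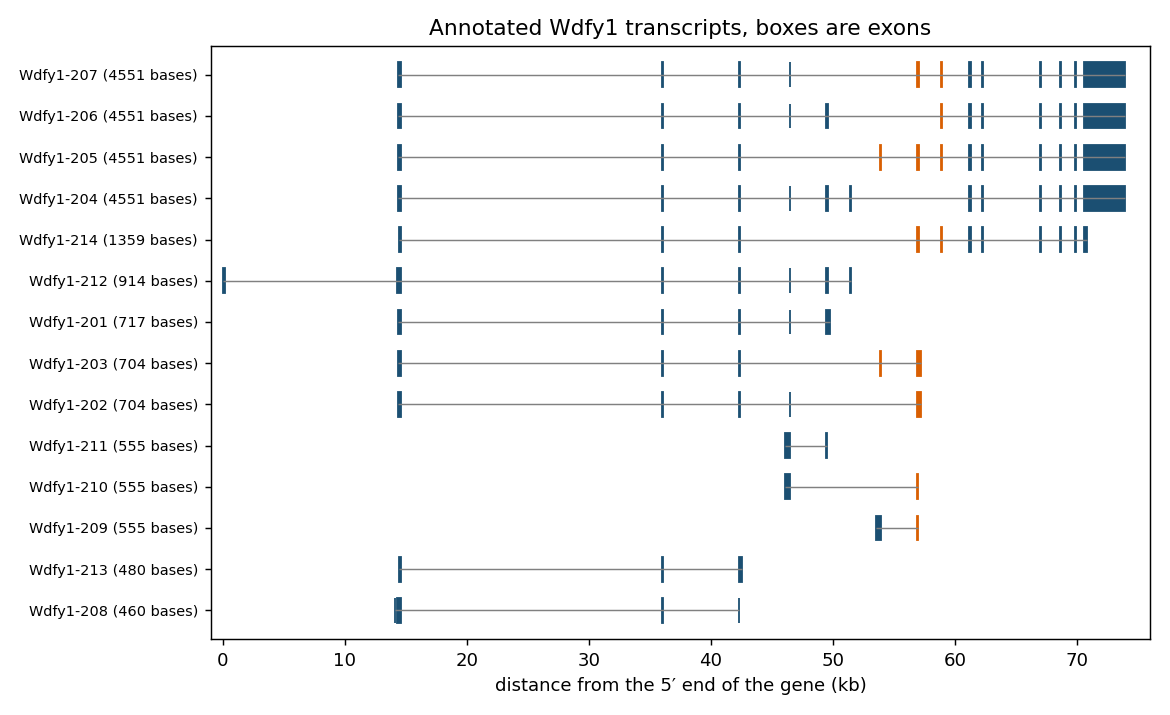
The 14 annotated Wdfy1 transcripts, 1 per line, against distance from the 5′ end of the gene in kb; boxes are exons to scale, and orange boxes start where an exon of the second copy of exons 4 to 6 starts. The 4 transcripts of 4551 bases share the large last exon, which the 10 shorter ones lack or hold only in part.

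Nnt was lower in the libraries numbered 12 to 21 than in nearly all others, within every group that has both runs of numbers. Levels are TMM-scaled CPM, that is counts per M after a scaling for library composition. In Y libraries 1 to 3 Nnt was measured at 53.1, 54.96 and 86.0 CPM, and in Y libraries 12 to 15 at 12.7, 17.6, 25.9 and 14.5 CPM. In O libraries 4 and 6 it was at 49.9 and 30.3 CPM, and in O libraries 16 to 18 at 9.83, 19.2 and 10.6 CPM. Within young and within old mice the numbers 12 to 21 did not overlap the lower numbers. O-re libraries 7 to 11 had 48.2, 21.7, 42.6, 40.3 and 28.3 CPM, and O-re libraries 19 to 21 had 13.9, 14.2 and 12.1 CPM. The Y-re libraries 22 to 24 had 23.5, 38.7 and 38.0 CPM. O-re showed no overlap either, and Y-re lay above 3 of the 4 Y libraries of numbers 12 to 15 and below all of numbers 1 to 3.

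Over all groups, Nnt averaged 45.5 ± 18.1 CPM (SD, n = 10) in numbers 1 to 11, 15.1 ± 4.78 CPM (SD, n = 10) in numbers 12 to 21 and 33.4 ± 8.59 CPM (SD, n = 3) in numbers 22 to 24. Of the 13 libraries outside numbers 12 to 21, 11 lay above all 10 libraries of that run. The overlap came from Y library 14, at 25.9 CPM, against O-re library 8 at 21.7 CPM and Y-re library 22 at 23.5 CPM. With group as a term, Nnt differed by -1.64 ± 0.18 on the log2 scale (SE) between numbers 12 to 21 and 1 to 11. In the same fit 8.45% of 17773 genes passed an edgeR adjusted p of 0.05, a share given only as background. Nnt was not at 0 in any library: the lowest expected count was 445 reads and the highest 3814.

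Wdfy1 separated the libraries with no overlap. In Y libraries 1 to 3 it was at 112, 130 and 123 CPM, against 48.6, 56.2, 56.1 and 44.5 CPM in Y libraries 12 to 15. O libraries 4 and 6 had 121 and 103 CPM, and O libraries 16 to 18 had 48.6, 44.6 and 42.7 CPM. Young and old libraries of the same run of numbers thus lay close together, and the runs lay apart. O-re libraries 7 to 11 had 116, 90.4, 108, 123 and 107 CPM, against 30.4, 39.6 and 35.0 CPM in O-re libraries 19 to 21. The Y-re libraries had 116, 111 and 117 CPM, within the range of numbers 1 to 11. Every library of numbers 12 to 21 lay between 30.4 and 56.2 CPM, and every other library lay between 90.4 and 130.0 CPM.

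By run, Wdfy1 averaged 113 ± 11.7 CPM (SD, n = 10) in numbers 1 to 11, 44.6 ± 8.31 CPM (SD, n = 10) in numbers 12 to 21 and 115 ± 2.84 CPM (SD, n = 3) in numbers 22 to 24. Its log2 difference between numbers 12 to 21 and 1 to 11 was -1.42 ± 0.08 (SE). Among young libraries alone the difference was -1.88 ± 0.26 for Nnt and -1.26 ± 0.10 for Wdfy1. On the unscaled level, the expected count of Wdfy1 ran from 1324 to 2629 in numbers 12 to 21 and from 4809 to 6778 elsewhere. Each library of numbers 12 to 21 also had more genes with a count than each of numbers 1 to 11, and summed monocyte markers had a median of 58.5 CPM (19.7 to 231) in numbers 1 to 11 and 269.9 CPM (8.40 to 1236) in numbers 12 to 21. Summed microglia markers had medians of 23662 CPM (13752 to 27217) and 18475 CPM (8679 to 28927) in the same runs, and both marker ranges overlapped. The part of these in the Nnt and Wdfy1 values was not tested. In bulk RNA, fewer cells of a type and less RNA per cell cannot be told apart.

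**Figure D2:**
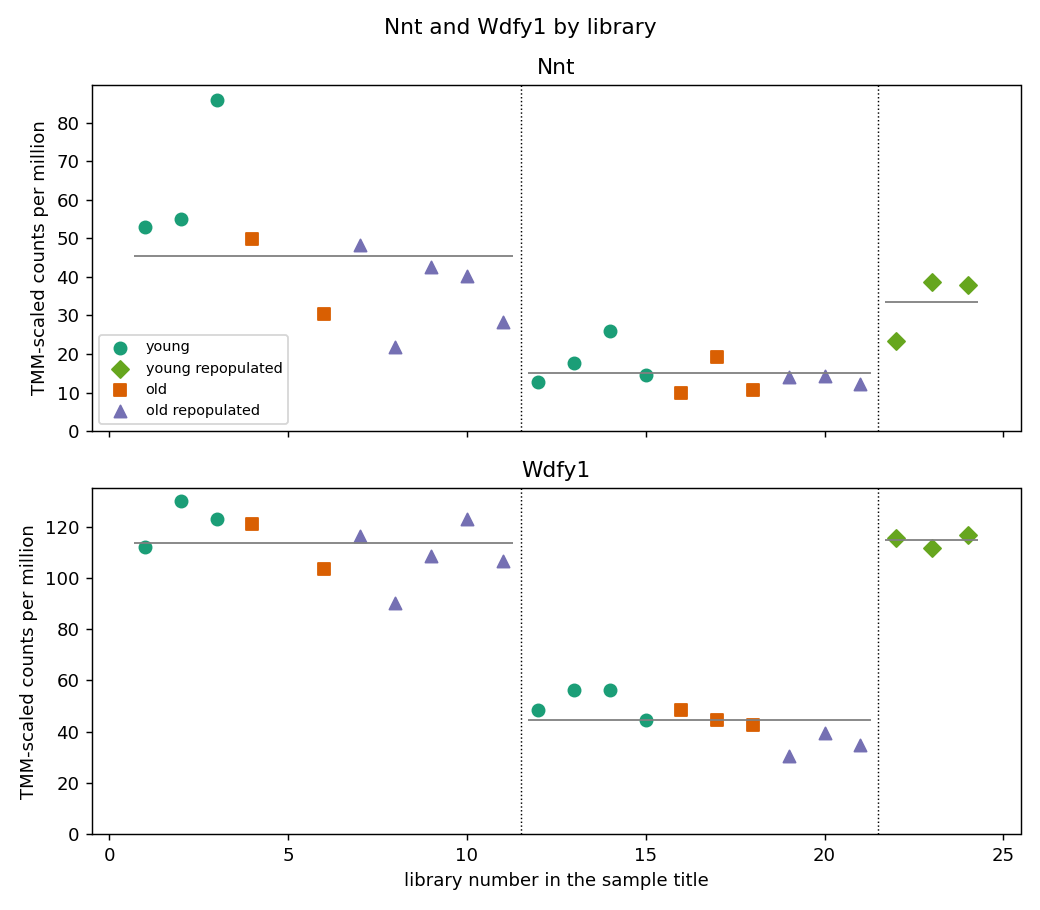
TMM-scaled CPM of Nnt (top) and Wdfy1 (bottom) against the library number in the sample title, 1 point per library, coloured by group; grey lines are run means and dotted lines separate numbers 1 to 11, 12 to 21 and 22 to 24. Wdfy1 in numbers 12 to 21 lies between 30.4 and 56.2 CPM, under all other libraries, and Nnt follows the same split with 1 library of that run above 2 from outside it.

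Set in order of the group means, Nnt was lowest in O, at 24.0 ± 16.7 CPM (SD, n = 5), followed by O-re at 27.7 ± 14.4 (SD, n = 8), Y-re at 33.4 ± 8.59 (SD, n = 3) and Y at 37.8 ± 27.6 (SD, n = 7). Wdfy1 was lowest in O, at 72.02 ± 37.2 CPM, followed by O-re at 81.2 ± 39.4, Y at 81.5 ± 38.2 and Y-re at 115 ± 2.84 CPM. For both genes, each step between neighbours in the order was within the larger of both SDs. The SD of Y, O and O-re held both runs of numbers, and that of Y-re only numbers 22 to 24.

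Between the study's groups, the differences depended on how the title number was handled. O minus Y was -0.66 ± 0.50 (log2, SE) for Nnt and -0.18 ± 0.38 for Wdfy1. With the title run as a term these became -0.54 ± 0.23 and -0.15 ± 0.10, so the values moved little and both SE shrank. Within numbers 1 to 11 the Nnt difference was -0.69 ± 0.35, and within numbers 12 to 24 it was -0.41 ± 0.28. The corresponding Wdfy1 differences were -0.12 ± 0.16 and -0.17 ± 0.10. O libraries were thus the lower ones on average for both genes in either run. The share of all genes called in this contrast was 2.83% of 18720.

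O-re minus O was 0.21 ± 0.48 (log2, SE) for Nnt and 0.17 ± 0.37 for Wdfy1. With the title run as a term the signs turned, to -0.09 ± 0.22 and -0.19 ± 0.10. Of the O-re libraries, 5 of 8 carry numbers 1 to 11, against 2 of 5 O libraries. Within numbers 12 to 24, Wdfy1 was lower in O-re than in O by -0.37 ± 0.11, with 3 O-re libraries at 30.4 to 39.6 CPM and 3 O libraries at 42.7 to 48.6 CPM. Within numbers 1 to 11 the Wdfy1 difference was -0.04 ± 0.14, and the O-re range of 90.4 to 123 CPM enclosed both O libraries. Nnt differed by -0.14 ± 0.32 in numbers 1 to 11 and by 0.02 ± 0.30 in numbers 12 to 24. The share of all genes called was 0.278% in the fit without the title run.

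Y-re minus Y was -0.18 ± 0.58 (log2, SE) for Nnt and 0.49 ± 0.44 for Wdfy1. With the title run as a term, which sets numbers 1 to 11 against 12 to 24, the values were 0.81 ± 0.27 and 1.23 ± 0.11. Within numbers 12 to 24 they were 0.95 ± 0.28 and 1.19 ± 0.10. The 3 Y-re libraries lay above all 4 Y libraries of numbers 12 to 15 in Wdfy1, and beside Y libraries 1 to 3, at 112 to 130 CPM, they lay near the lower end. No library of Y and Y-re shares a run of numbers once 22 to 24 are set apart from 12 to 21, so these values cannot be assigned to the returned microglia or to the title number. The share of all genes called was 1.34%.

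The deposited length of a gene is the mean length of its transcripts weighted by their estimated abundance, so it shows which transcripts the reads were assigned to. It comes from the same reads that chose the genes and is given without a test. For Wdfy1 it was 2883 ± 173 bases (SD, n = 10) in numbers 12 to 21, ranging from 2587 to 3080, and 3926 ± 258 bases (SD, n = 10) in numbers 1 to 11, ranging from 3485 to 4253. The Y-re libraries had 3743, 4038 and 3947 bases. The runs did not overlap, and Y library 3, which had the fewest genes with a count of all libraries, was the lowest outside numbers 12 to 21. For Nnt the length was 3103 ± 45.1 bases (SD, n = 10) in numbers 12 to 21 and 3170 ± 68.4 bases (SD, n = 10) in numbers 1 to 11, and the ranges overlapped. Within groups, the length in numbers 12 to 21 less that in 1 to 11 averaged -1020 bases for Wdfy1 and -69.5 bases for Nnt.

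**Figure D3:**
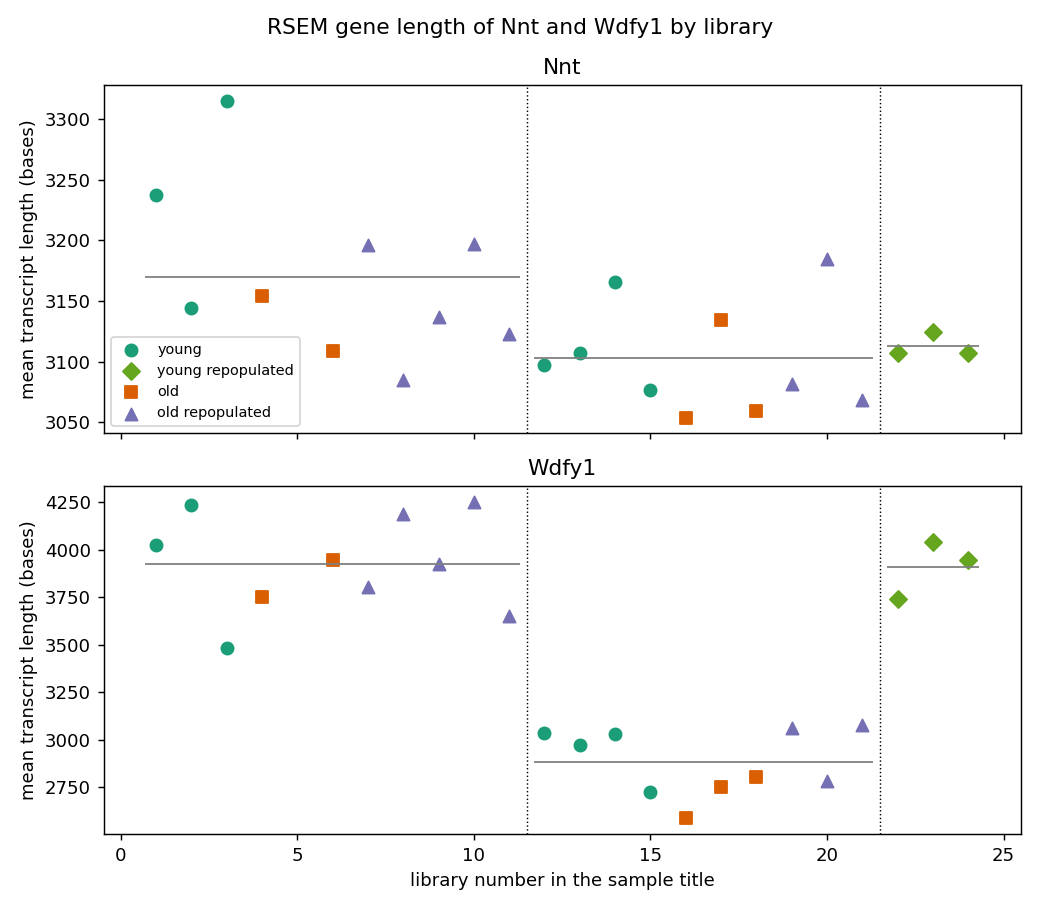
Deposited RSEM gene length in bases of Nnt (top) and Wdfy1 (bottom) against the library number in the title, 1 point per library; grey lines are run means, and the axes do not start at 0. Wdfy1 lengths in numbers 12 to 21 stay between 2587 and 3080 bases, under all other libraries, while the Nnt runs overlap.

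Because Wdfy1 transcripts are either 4551 bases or at most 1359 bases, the mean length bounds the share of the long ones. The lower bound takes all short transcripts at 1359 bases and the upper bound at 460 bases. In numbers 12 to 21 the long transcripts made up at least 38.5% and at most 64.1% of Wdfy1 transcripts in any library. In numbers 1 to 11 they made up 66.6% to 92.7%, and in numbers 22 to 24 74.7% to 87.5%. On the TPM scale, transcripts per M, the long transcripts lay between 8.35 and 20.6 TPM in numbers 12 to 21 and between 30.9 and 50.1 TPM in numbers 1 to 11. The short transcripts lay between 5.70 and 19.8 TPM in numbers 12 to 21 and between 3.09 and 17.9 TPM in numbers 1 to 11. The bounded levels of the long transcripts thus did not overlap between those runs, and those of the short transcripts did. These bounds rest on the authors' estimates of transcript abundance from single reads.

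On the TPM scale for the whole gene, Wdfy1 averaged 27.0 ± 5.72 TPM (SD, n = 10) in numbers 12 to 21 and 47.9 ± 6.49 TPM (SD, n = 10) in numbers 1 to 11. The log2 ratio of these means was -0.82, smaller in size than on the CPM scale, since TPM divides by the length that was itself lower. Nnt averaged 8.41 ± 2.72 TPM (SD, n = 10) and 23.6 ± 8.52 TPM (SD, n = 10) in the same runs. Per length, over all 23 libraries, Wdfy1 was at 38.882 ± 12.004 TPM and Nnt at 16.2 ± 9.36 TPM (SD). The relatives of Wdfy1 by name, Wdfy2, Wdfy3 and Wdfy4, were at 21.7 ± 2.89, 23.2 ± 3.25 and 31.7 ± 3.85 TPM (SD, n = 23). Wdfy1 was picked because its values split these libraries, so its larger SD than that of each relative is no separate result.

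The WDFY relatives gave 0 of 3 calls by edgeR's adjusted p in each of the 4 comparisons. Between numbers 12 to 21 and 1 to 11, Wdfy2 differed by -0.08 ± 0.08, Wdfy3 by 0.16 ± 0.07 and Wdfy4 by 0.11 ± 0.07 (log2, SE). These are differences within the same fit in which Wdfy1, picked by this split, was at -1.42.

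Genes that make mitochondrial and cytosolic NADPH or spend it on peroxides, the partners of NNT, were listed as a group of 22, of which 21 passed the filter on low counts and Me3 did not. In the title-number comparison edgeR called 0 of 21, beside 8.45% of 17773 genes. DESeq2, which called 17.2% of all genes, called 3, G6pdx, Gsr and Txnrd1. An unadjusted p under 0.05 was seen for 8. Here and below, counts at unadjusted p have no share of all genes beside them, so they are not read as a result. The median log2 difference of the list was 0.18 beside -0.00 for all genes, and 17 of 21 differences were above 0. Gsr, glutathione reductase, which spends NADPH to recycle glutathione, had the largest, at 0.66 ± 0.25 with an edgeR adjusted p of 0.0978. Mean Gsr in numbers 1 to 11 and 12 to 21 was 24.0 and 23.1 CPM in Y, 35.8 and 66.4 CPM in O, and 37.5 and 85.1 CPM in O-re. The part of the monocyte markers in this was not tested. G6pdx, the entry enzyme of the pentose phosphate pathway and the main cytosolic source of NADPH, was at 0.29 ± 0.09 with an edgeR adjusted p of 0.0548. Idh2, the mitochondrial NADPH-making isocitrate dehydrogenase, was at 0.20 ± 0.12 with an edgeR adjusted p of 0.287.

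In the study's own comparisons the NADPH list gave 0 of 21 calls by edgeR each time. The shares of all genes were 2.83% in O versus Y, 0.278% in O-re versus O and 1.34% in Y-re versus Y. Genes with an unadjusted p under 0.05 numbered 6 in O versus Y, 3 in O-re versus O and 2 in Y-re versus Y, and DESeq2 called 2, 0 and 1 of 21 beside 5.75%, 2.21% and 4.53% of all genes. Gsr had the largest difference of the list in O versus Y, at 1.21 ± 0.36 (log2, SE; edgeR adjusted p 0.0685). Me1, cytosolic malic enzyme, had the largest in O-re versus O, at 0.51 ± 0.78 (edgeR adjusted p 0.913), and in Y-re versus Y, at 1.25 ± 0.90 (edgeR adjusted p 0.569). Within numbers 12 to 24, edgeR called 6, 9 and 2 of 21 in these comparisons, where 15.7%, 12.7% and 9.3% of all genes were called. Within numbers 1 to 11 it called 0 of 21 in both comparisons that could be fitted. Of all 18746 genes it called 1 there in O versus Y and 0 in O-re versus O, so a count of 0 decides nothing.

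The 19 genes of the TLR3 and TLR4 route through TRIF, in which WDFY1 takes part, all passed the filter. In the title-number comparison 1 of 19 was called, beside 8.45% of 17773 genes. It was Tank, a scaffold for the kinases TBK1 and IKKε, at 0.40 ± 0.09 (log2, SE) with an edgeR adjusted p of 0.0166. Tank was at 46.8 ± 7.37 CPM (SD, n = 10) in numbers 1 to 11 and 61.5 ± 17.1 CPM (SD, n = 10) in numbers 12 to 21. Among young libraries alone it differed by 0.12, and its call was lost, with an edgeR adjusted p of 0.71. That fit called 0.673% of 16039 genes. The part of the monocyte markers, whose ranges by run are given above, was not tested. The receptors Tlr3, for double-stranded RNA, at -0.41 ± 0.23, and Tlr4, for lipopolysaccharide, at 0.01 ± 0.13, had edgeR adjusted p values of 0.253 and 0.965. Ticam1, which encodes TRIF, was at 0.10 ± 0.07 (edgeR adjusted p 0.397), and Ikbke, the kinase IKKε, had the largest difference at 0.61 ± 0.28 (edgeR adjusted p 0.162). The list median was 0.10 beside -0.00 for all genes.

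Across the study's groups, edgeR called 0 of these 19 genes in O versus Y, in O-re versus O and in Y-re versus Y. Its shares of all genes there were 2.83%, 0.278% and 1.34%. Unadjusted p values under 0.05 numbered 4, 2 and 4, and DESeq2 called 2, 1 and 0 of 19, beside 5.75%, 2.21% and 4.53% of all genes. Irf7, an interferon regulatory factor, had the largest difference in O versus Y, at 1.25 ± 0.41 (log2, SE; edgeR adjusted p 0.109), and in O-re versus O, at -1.16 ± 0.39 (edgeR adjusted p 0.226). Tlr4 had the largest in Y-re versus Y, at 0.58 ± 0.18 (edgeR adjusted p 0.109). Within numbers 12 to 24, edgeR called 4, 4 and 3 of 19, beside 15.7%, 12.7% and 9.3% of all genes.

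**Figure D4:**
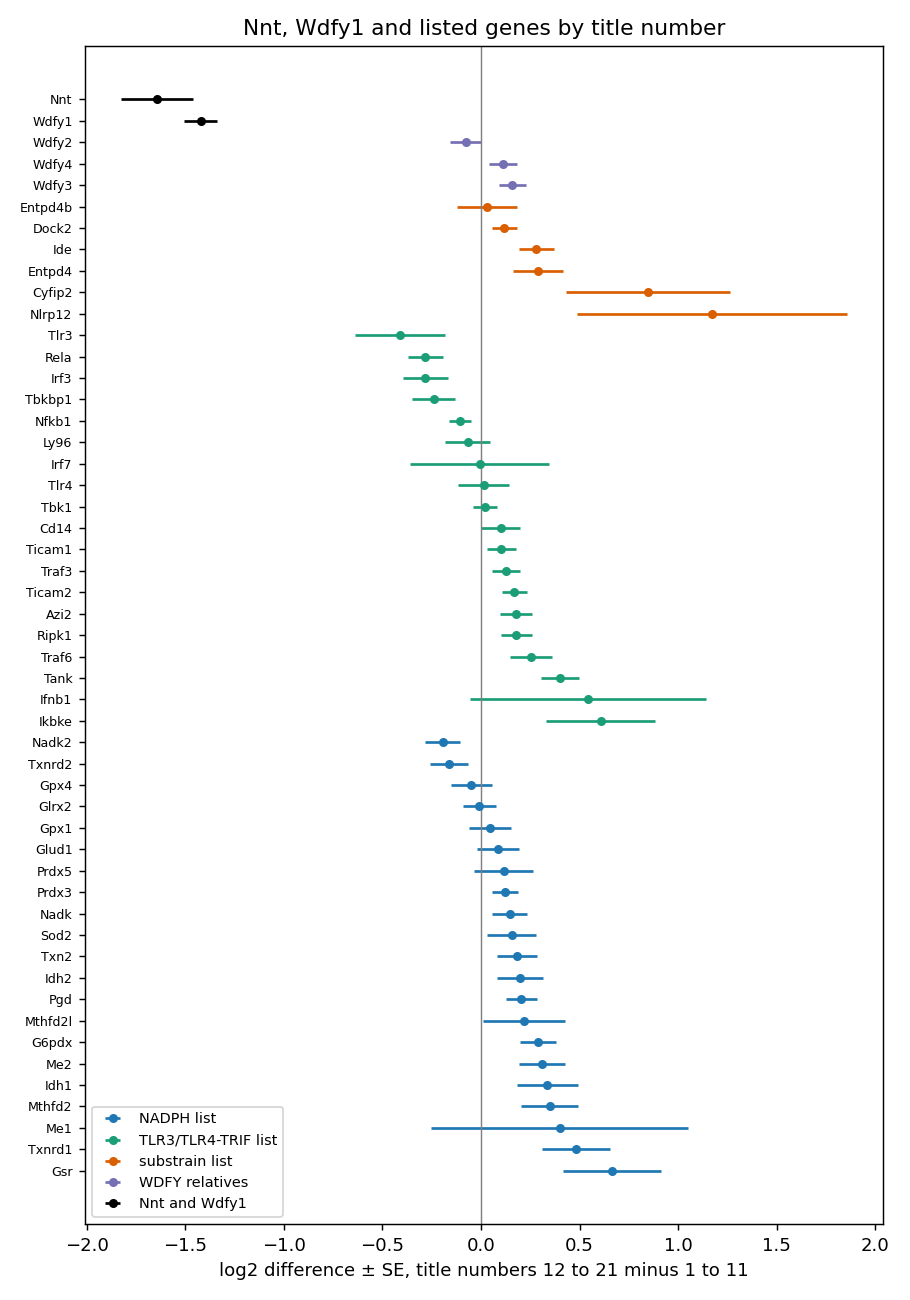
Log2 difference between libraries numbered 12 to 21 and 1 to 11, with SE, for Nnt and Wdfy1 and for tested genes of 4 lists, from a fit with group as a term; the vertical line marks 0. Nnt at -1.64 and Wdfy1 at -1.42, which were picked by this split, lie left of all listed genes shown, of which the lowest, Tlr3, is at -0.41.

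Other genes known to differ in sequence or expression between C57BL/6 substrains were listed as a group of 10. Crb1 and Mmrn1 had a count of 0 in every library and Gabra2 did not pass the filter, so 7 were tested. In the title-number comparison edgeR called 0 of 7, beside 8.45% of 17773 genes, and DESeq2 called 1, Ide, beside 17.2% of all genes. An unadjusted p under 0.05 was seen for 2. All 7 differences were above 0, opposite in sign to those of Nnt and Wdfy1, with a median of 0.28. Ide, an insulin-degrading protease, was at 0.28 ± 0.09 (log2, SE; edgeR adjusted p 0.0543), with 24.0 ± 4.01 CPM (SD, n = 10) in numbers 1 to 11 and 28.2 ± 5.56 CPM (SD, n = 10) in numbers 12 to 21. Nlrp12, an inflammasome-family gene, had the largest difference at 1.17 ± 0.68 (edgeR adjusted p 0.280), on levels of at most 0.868 CPM. Entpd4 and Entpd4b, close paralogs between which counting may split reads, were at 0.29 ± 0.13 and 0.03 ± 0.15 (edgeR adjusted p 0.150 and 0.924). In Y, Entpd4 ran from 16.3 to 22.8 CPM in numbers 1 to 11 and from 29.9 to 39.7 CPM in numbers 12 to 21. Entpd4b ran from 10.7 to 11.7 CPM and from 15.8 to 18.1 CPM there, so neither gene's runs overlapped in Y. The share of all genes whose runs do not overlap in Y was not computed, so this is not read as a result. Means in the same order were 18.9 and 21.2 CPM for Entpd4 and 13.2 and 12.01 CPM for Entpd4b in O. In O-re they were 26.03 and 25.2 CPM, and 15.1 and 11.8 CPM. Among young libraries alone edgeR called 0 of 5 tested genes of this list, beside 0.673% of 16039 genes, so a count of 0 decides nothing. Dock2, a Rac activator of immune cells, was at 0.12 ± 0.06 (edgeR adjusted p 0.236).

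Cyfip2, a regulator of actin assembly in the WAVE complex, was the called gene of that list in the study's comparisons. In Y it ran from 0.888 to 5.18 CPM with a median of 2.47, and in O from 4.18 to 58.5 CPM with a median of 24.3. O-re ran from 4.65 to 55.2 CPM with a median of 31.0, and Y-re libraries lay between 11.8 and 27.7 CPM. Old libraries were thus mostly above young ones, with an overlap at the lowest O and O-re libraries, and all Y-re libraries lay above all Y libraries. The share of all genes that separate Y-re from Y in this way was not computed. Cyfip2 had 2 calls. Its difference was 3.41 ± 0.58 in O versus Y (log2, SE, edgeR adjusted p 0.00368) and 2.70 ± 0.62 in Y-re versus Y (edgeR adjusted p 0.0317). The second call was lost, with adjusted p between 0.0525 and 0.226, without any 1 of Y replicates 1, 2, 4, 5, 6 and 7 or of the 3 Y-re libraries, and with the title run as a term it was at 0.0694. Within numbers 1 to 11 the O versus Y difference was 2.34 and not called, in an edgeR fit that called 1 of 18746 genes. A lost call in that fit therefore cannot tell whether the difference holds. Summed monocyte markers, 4 genes, ran from 8.40 to 78.9 CPM in Y and from 36.1 to 1236 CPM in O, and their part in the Cyfip2 difference was not tested. Of the list, edgeR called 1 of 7 in O versus Y and 1 of 7 in Y-re versus Y, beside 2.83% and 1.34% of 18720 genes. In O-re versus O edgeR called 0 of 7, beside 0.278%, and DESeq2 called 0, beside 2.21% of all genes. An unadjusted p under 0.05 was seen there for 1.

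Between the runs of title numbers, edgeR called 0 of the tested protein-coding genes near Nnt, beside 8.45% of 17773 genes. Within 1 Mb of Nnt 25 protein-coding genes are annotated, of which 11 were tested in that comparison, with a median log2 difference of 0.07. Non-coding genes were not included. Paip1, a translation factor that binds poly(A)-binding protein, starts 19604 bases from Nnt on the opposite strand and differed by 0.02 ± 0.05 (log2, SE; edgeR adjusted p 0.845). Mrps30, a mitochondrial ribosomal protein and the nearest tested named gene on the other side at 948196 bases, differed by 0.07 ± 0.09 (edgeR adjusted p 0.693). In O versus Y, where 2.83% of all genes were called, 1 of 15 tested was called, the predicted gene Gm21188, at 4.20 ± 0.77 (edgeR adjusted p 0.00578). Within numbers 1 to 11 it was at 1.94 ± 1.01 and not called, in an edgeR fit that called 1 of 18746 genes.

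Around Wdfy1 6 of 10 annotated protein-coding genes were tested. By edgeR, 1 of 6 was called between the runs of numbers, beside 8.45% of all genes, and 1 of 6 in O versus Y, beside 2.83%. Mrpl44, a mitochondrial ribosomal protein, overlaps the far 5′ end of Wdfy1 on the opposite strand at chr1:79776018-79781445 and differed by 0.07 ± 0.10 between the runs of numbers (log2, SE; edgeR adjusted p 0.694). Ap1s3, an adaptor subunit of vesicle transport 30290 bases away on the other side, differed by 0.61 ± 0.36 (edgeR adjusted p 0.292). Cul3, a ubiquitin ligase scaffold 488780 bases away, was called at 0.25 ± 0.08 with an edgeR adjusted p of 0.0485, and lost the call under other size factors (0.0553), with no filter (0.072), among young libraries alone (0.873) and without any 1 of 14 libraries (0.0526 to 0.123). Ap1s3 rose in O versus Y by 2.01 ± 0.48 (edgeR adjusted p 0.0247), from 1.24 ± 0.83 CPM in Y (SD, n = 7) to 5.00 ± 2.53 CPM in O (SD, n = 5). Its call was lost without any 1 of Y replicates 1, 4, 6 and 7 or O replicates 3 and 5, with adjusted p between 0.0502 and 0.153. It was also lost within numbers 1 to 11, at 1.62 ± 0.86, in an edgeR fit that called 1 of 18746 genes. A lost call in that fit cannot tell whether the difference holds. The part of the monocyte markers, from 8.40 to 78.9 CPM in Y and from 36.1 to 1236 CPM in O, was not tested for Ap1s3 either.

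By Pearson r, Nnt and Wdfy1 were each other's closest match among 9560 genes, those of 10171 with a mean of at least 5 CPM that are not predicted genes. Their log2 CPM values had a Pearson r of 0.878 and a Spearman rho of 0.882 over 23 libraries, and an r of 0.896 with group means removed. By each of these other measures Wdfy1 ranked 3 for Nnt, behind Ctla2b (rho 0.928) and Mepce (rho 0.888) by Spearman and behind Adnp (r 0.907) and 1 other gene with group means removed, and Nnt ranked 1 for Wdfy1. Both genes were picked because their values split by title number, so a high r and rank over all libraries follow from that choice. The libraries fall into separate clusters by title number, and both genes share libraries, depth and scaling, so the values are a description. Within numbers 1 to 11 r was 0.816 (n = 10) and within numbers 12 to 21 it was 0.411 (n = 10). The value was lower in the second run, and the difference between the runs was not tested.

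**Figure D5:**
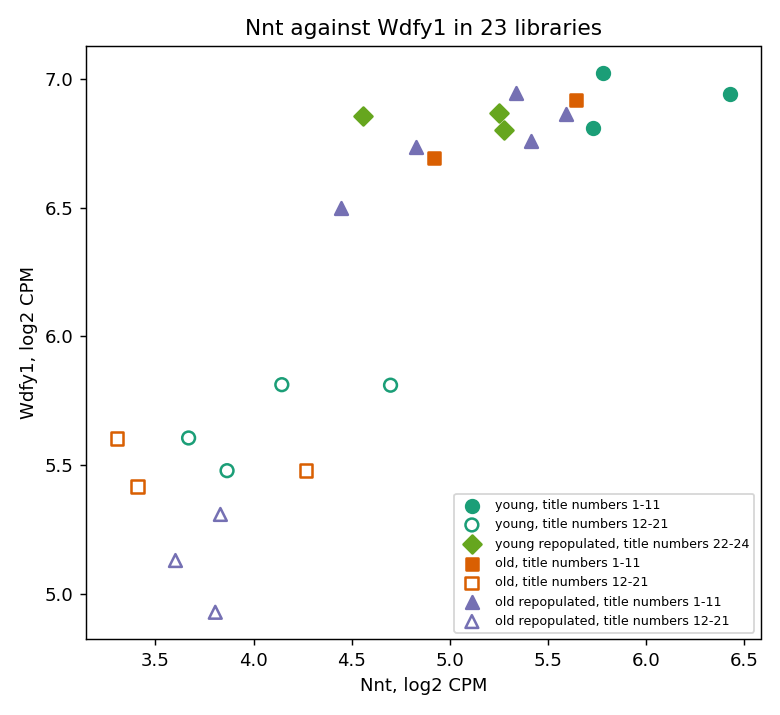
Wdfy1 against Nnt, both as log2 CPM, 1 point per library; colour and shape give the group, and open symbols are title numbers 12 to 21. Open symbols form a cluster low in Wdfy1, and filled symbols form a cluster high in Wdfy1, with partial overlap along the Nnt axis.

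After Wdfy1, the genes most like Nnt were Ctla2b (r 0.866), Adnp (0.845), Mepce (0.843) and Ablim1 (0.811), over 23 libraries. Adnp, a homeobox zinc-finger protein of chromatin, had r of 0.794 in numbers 1 to 11 and 0.676 in numbers 12 to 21. Ctla2b, related to cysteine protease propeptides, had r of 0.413 and 0.772 in those runs. The lowest values were those of Praf2 (r -0.855), Hcfc1 (-0.853) and Smarce1 (-0.835). Nnt was picked by its split between runs, and none of these genes spread as widely. Adnp differed by -0.83 ± 0.12 and Mepce, which caps the 7SK RNA, by -0.88 ± 0.13 (log2, SE) between numbers 12 to 21 and 1 to 11, beside -1.64 for Nnt.

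Among the genes most like Wdfy1 were Nnt, Ilvbl (r 0.850), Mepce (0.838) and Trpm2 (0.832). The lowest values were those of Pdia6 (r -0.905) and Pdia4 (-0.883), disulfide isomerases of the endoplasmic reticulum, and of Calr (-0.874), a chaperone there. Pdia6 was at 255 ± 44.7 CPM (SD, n = 10) in numbers 1 to 11 and 424 ± 88.4 CPM (SD, n = 10) in numbers 12 to 21, a log2 difference of 0.77 ± 0.10. For Pdia6 and Pdia4 r stayed below 0 within numbers 1 to 11 (-0.439 and -0.493) and within numbers 12 to 21 (-0.871 and -0.873). Calr changed sign, with 0.249 in numbers 1 to 11 and -0.716 in numbers 12 to 21. Trpm2, a calcium channel, had r near 0 in numbers 1 to 11, at 0.047, and 0.523 in numbers 12 to 21.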

How the data were processed

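The authors deposited 1 table per library in the RSEM gene layout, with expected counts (estimates that need not be whole), a gene length and effective length in bases, TPM and FPKM, per the file headers. FPKM were deposited by the authors too and were not used in any result. The submitters' processing notes name FastQC 0.11.5, STAR, RSEM, limma and GRCm38; the sources used here give no other version, no annotation release and no word on strand in counting. Libraries were stranded poly(A) preparations read as single ends, and the protocols mention cultured CD11b-selected cells as well as flow sorting, per the labels. Of the deposited expected counts, 87.26% were whole within a tolerance of 1e-06, and all were rounded before testing. Gene names come from the deposited tables, and coordinates and sequences from GENCODE M21 (GRCm38). Of the deposited identifiers, 49035 had the same version there and 52403 were found ignoring versions.

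Counts were fitted in R 4.3.3 with edgeR 4.0.16 (filterByExpr, TMM, quasi-likelihood test) on all 23 libraries with 1 coefficient per group. A second fit over numbers 1 to 21 had group and title run as terms. A call is a Benjamini-Hochberg adjusted p, over all tested genes, under 0.05. Log2 CPM used a prior count of 2. The code was tested on simulated data.

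Nnt, Wdfy1 and the gene lists were chosen with earlier results of these data known, so no test is given for the former and their lengths, which come from the same reads. A planned permutation test of the lengths is left out for that reason. Named beside them were called list genes, the largest difference of each list, the 5 highest and 3 lowest correlations per gene, and the nearest tested neighbours; other list and neighbour genes were named where their role is described, after their values were seen. Some genes that the rule names are left out of the text and plots, and stay in the counts. Where a symbol had more than 1 identifier (Ide, Nlrp12, Nadk2, Txnrd2), that with the highest mean was used. Alternatives were RLE size factors, no filter, DESeq2 1.42.0, the title run as a term, fits within runs of numbers, young libraries only, other scales, Spearman or group-centred likeness, and leaving out each library.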

Additional observations from a re-analysis of the deposited data

How the results depend on the processing

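For 35 values, 138 alternatives kept every library, and 104 of them left the value within the replicate spread or, for counts, within 1.5 times. For group differences that spread was the log2 SD within groups, 0.912 for Nnt and 0.728 for Wdfy1, which holds the split by title number. Within group and run the SD was 0.435 and 0.154. The wider spread therefore took in the turned signs of O-re minus O. It also took in 1.19 for Wdfy1 in Y-re minus Y within numbers 12 to 24. Y-re minus Y moved with the title run as a term, to 0.81 for Nnt and 1.23 for Wdfy1, and within numbers 12 to 24 to 0.95 for Nnt. The Wdfy1 difference between runs was -1.26 among young libraries, and -0.82 as a ratio of TPM means.

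Counts of called list genes moved in the other 29 cases. In the NADPH list DESeq2 called 2 in O versus Y, 1 in Y-re versus Y and 3 between runs, and fits within numbers 12 to 24 called 6 in O versus Y, 9 in O-re versus O and 2 in Y-re versus Y. In the TLR3 and TLR4 list O versus Y gave 1 call with RLE size factors, 2 with DESeq2, 1 with the title run as a term and 4 within numbers 12 to 24. O-re versus O gave 1 with DESeq2 and 4 within numbers 12 to 24, Y-re versus Y gave 3 within numbers 12 to 24, and the runs gave 2 with DESeq2 and 0 among young libraries. In the substrain list O versus Y gave 2 with DESeq2, 0 within numbers 1 to 11 and 2 within numbers 12 to 24. O-re versus O gave 1 within numbers 12 to 24, Y-re versus Y gave 0 with the title run as a term, and the runs gave 1 with no filter and 1 with DESeq2. Among genes around Nnt and Wdfy1, O versus Y gave 0 within numbers 1 to 11. Within numbers 12 to 24, 4 were called in O-re versus O and 3 in Y-re versus Y. Between runs 0 were called with RLE size factors, with no filter and among young libraries, and 2 with DESeq2. The shares of all genes called differed between these fits as well. Within numbers 12 to 24 they were 15.7% in O versus Y, 12.7% in O-re versus O and 9.3% in Y-re versus Y. Within numbers 1 to 11, 1 of 18746 genes was called in O versus Y and 0 in O-re versus O. Between runs, young libraries alone gave 0.673% of 16039 genes. The cause was not tested.

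Leaving out each library in turn, 580 of 644 values stayed and 64 moved. The log2 difference of Nnt between runs stayed between -1.73 and -1.54 and that of Wdfy1 between -1.46 and -1.37. The group differences moved more. O minus Y ranged from -1.09 without O replicate 1 to -0.31 without Y replicate 3 for Nnt, and from -0.42 to -0.01 for Wdfy1. O-re minus O ranged from 0.01 to 0.66 for Nnt and from 0.03 to 0.44 for Wdfy1, both highest without O replicate 1. Y-re minus Y ranged from -0.33 to 0.16 for Nnt, with the sign turning without Y replicate 3 (0.16) and without Y-re replicate 1 (0.02), and from 0.39 to 0.66 for Wdfy1. Calls in the NADPH list ranged from 0 to 2 in O versus Y and from 0 to 5 between runs. In the TLR3 and TLR4 list they ranged from 0 to 2 in O versus Y, 0 to 1 in O-re versus O and in Y-re versus Y, and 1 to 3 between runs. In the substrain list they ranged from 0 to 1 in Y-re versus Y and between runs. Among nearby genes they ranged from 1 to 2 in O versus Y, 0 to 1 in Y-re versus Y and 0 to 2 between runs. No paired analysis was possible because the labels number no replicates within groups; the replicate numbers used here follow the order of the titles and only name libraries. Depth did not limit the values of Nnt and Wdfy1, which had at least 445 and 1324 expected counts in every library; it limits Nlrp12 and Gabra2.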
